A study of Homo sapiens with 6 samples.

Results

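The actin, smooth muscle and SRF cytoskeleton genes are 39 named genes for actins, proteins that bind actin filaments, non-muscle and smooth muscle myosin parts, focal adhesion and LIM-domain proteins, actin monomer binders and the transcription factor SRF. They were found by symbol among 62656 genes in RNA sequencing tables, and all 39 were expressed enough to be tested, among 19029 tested genes. The cells were OVCAR5, an established human ovarian cancer cell line, given 100 nM of the DNA hypomethylating drug NTX301 for 3 days (3 libraries) or DMSO as the control (3 libraries). Such drugs reduce cytosine methylation. All 6 libraries are from this 1 line. Separate cultures are not stated, so the p-values reflect only how these libraries vary, which may be technical. Totals were 23194160 to 23842859 estimated counts with NTX301 and 22131175 to 25743732 with DMSO.

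As background, actin monomers polymerise into filaments, and filaments slide and contract when myosin II motors pull on them. SRF binds a DNA element called the CArG box in the promoters of many actin and contractile genes. Its cofactors of the MRTF family are held by free actin monomers and are released when monomers are taken up into filaments, so genes of the actin machinery are among the known targets of a factor that reads the state of actin. Proteins such as alpha-smooth muscle actin, calponin 1 and transgelin mark smooth muscle and contractile fibroblasts, and are low in most epithelial cells.

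With NTX301, 4 genes best known from smooth muscle, ACTG2, CNN1, MYL9 and TAGLN, were far higher, while the cytoplasmic actins that make up nearly all actin RNA were lower. CNN1 had a fitted level 21.9-fold that with DMSO, MYL9 10.8-fold and TAGLN 10.5-fold. ACTG2 was at 27.3-fold, a value that rests on 4 DMSO counts in all (log2 4.27 to 5.97 with 1 library left out). Among other contractile genes, TPM1 was not called, and TPM2 and CALD1 rose by only 0.17 and 0.25 on the log2 scale. ACTB and ACTG1 had 1.52-fold and 1.59-fold lower levels than with DMSO. Of the 39 genes, 26 rose and 8 fell at an adjusted p under 0.05 over all tested genes (quasi-likelihood test in edgeR), against 35.4% of all tested genes that rose and 35.1% that fell. That is 66.7% and 20.5% of the 39. In either direction 34 changed, or 87.2%, against 70.5% of all tested genes. Of the 39, 10 genes, ACTG2, CNN1, MYL9, TAGLN, ACTA2, MYLK, TGFB1I1, ZYX, TPM4 and CSRP1, rose by 2-fold or more (25.6%, against 13.4% of all tested genes). PDLIM5 fell by 2-fold or more, 2.56% of the 39 against 8.55% of all tested genes. The median log2 fold change of the 39 was 0.39, against 0.0 over all tested genes. In 35 of the 39 the CPM ranges of the groups were apart, or 89.7%, against 73.7% of all tested genes.

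**Figure D1:**
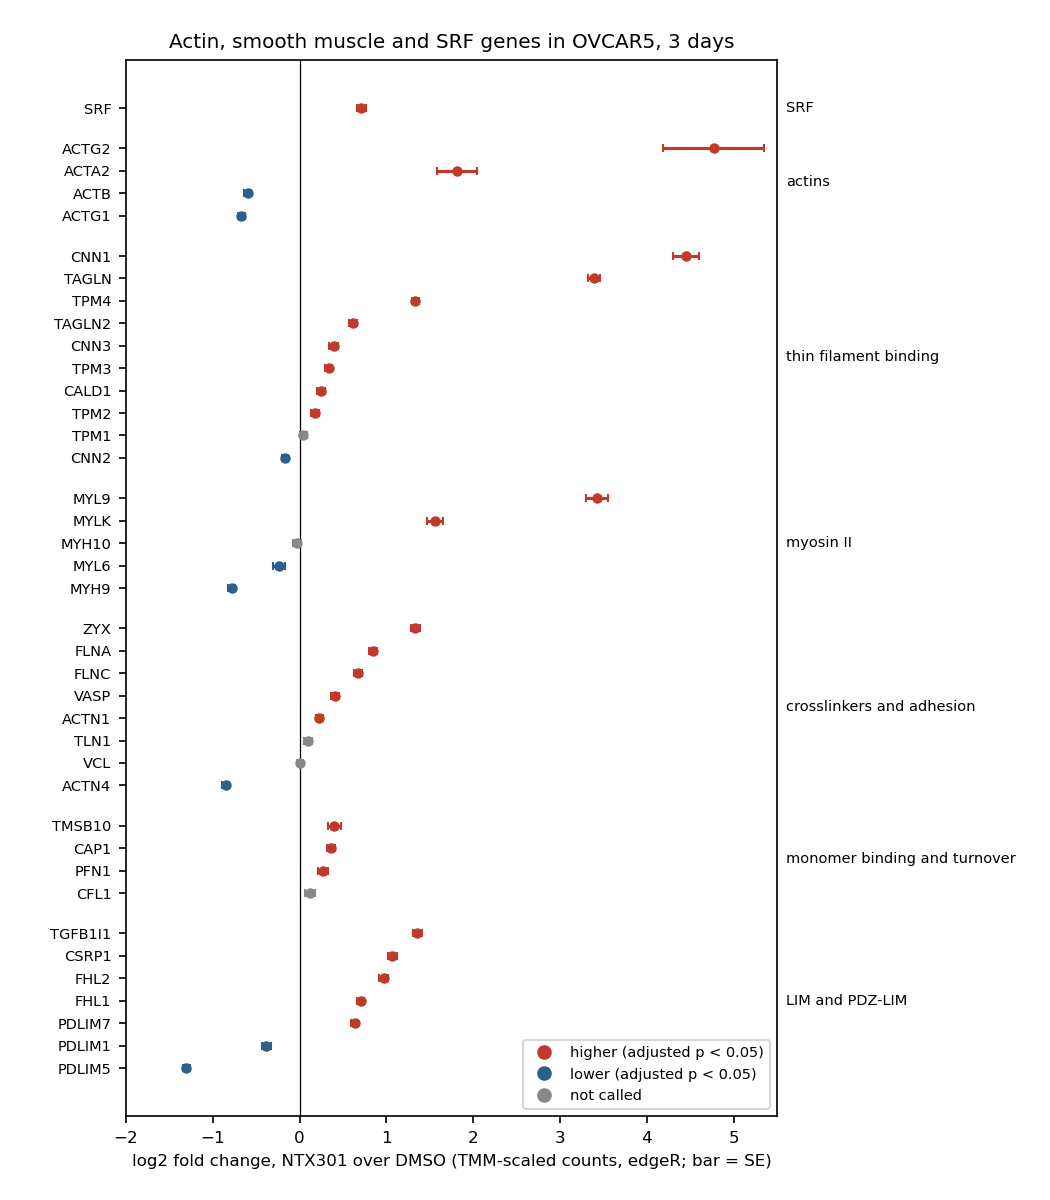
Log2 fold change of each of the 39 genes, NTX301 over DMSO, on TMM-scaled counts, grouped by role; bars are standard errors from edgeR over 3 libraries a group. ACTG2, CNN1, MYL9 and TAGLN lie above 3, and PDLIM5 lies lowest at -1.30. The 5 genes not called, VCL, MYH10, TPM1, TLN1 and CFL1, lie nearest 0, and CNN2 and MYL6, called lower, lie a little below it. CNN2, MYH10 and VCL changed sign under other settings.

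How libraries were scaled mattered for the small changes. Counts were scaled by TMM, which sets the typical gene to no change. Without a scaling factor the median of all tested genes was 0.21 on the log2 scale, 31 of the 39 rose and 6 fell. Over all genes the rises then made up 65.01% of calls, against 50.25% with TMM, and 66.02% on log2(TPM + 1). All changes given for the 39 genes are thus measured against the typical gene.

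Epithelial markers were expressed in both groups. KRT8, a keratin of simple epithelia, averaged 1180 TPM with NTX301 and 2159 TPM with DMSO. Of 8 epithelial markers 6 fell and 2 rose. KRT7 rose, with means of 286.4 TPM with NTX301 and 103.5 TPM with DMSO, and CDH1 rose by 0.31 ± 0.09 on the log2 scale. The summed level of the 8 was 2784 to 2859 TPM with NTX301 and 4516 to 4706 TPM with DMSO. KRT8 and KRT18, whose genes overlap on opposite strands, made up most of it. Of 5 ovarian carcinoma markers 0 rose and MUC16 fell, by 2.31 ± 0.26 on the log2 scale (edgeR adjusted p = 7.0e-06), with 14, 25 and 15 counts in the NTX301 libraries and 68, 79 and 93 counts in the DMSO libraries. PAX8 averaged 9.13 TPM with NTX301 and 5.88 TPM with DMSO, and MSLN 4.01 TPM with NTX301 and 3.66 TPM with DMSO, and neither was called. WT1 and ESR1 were too low to test. Of 7 further smooth muscle markers that are not among the 39, 4 rose, and their summed level was 87.3 to 98.0 TPM with NTX301 and 34.5 to 37.4 TPM with DMSO. Most of that sum was SMTN and SYNM. Of these 7 markers, 5 (DES, LMOD1, MYH11, SMTN and SYNPO2) are also among the further SRF targets and MYOCD is also among the SRF cofactors, so those counts are not separate observations. MYOCD, the smooth muscle cofactor of SRF, had 0 counts in all 6 libraries, and MYH11, the smooth muscle myosin heavy chain, averaged 0.147 TPM with NTX301 and 0.117 TPM with DMSO and was not called. Of 9 fibroblast markers 4 rose, 1 fell and 4 were too low to test, with sums of 21.2 to 21.97 TPM with NTX301 and 5.23 to 5.89 TPM with DMSO. COL1A1 made up most of that sum, and COL1A2, DCN, THY1 and FAP were below 0.15 TPM in both groups. The largest changes of the 9 were in PDGFRA, by 2.99 ± 0.178 on the log2 scale, and PDGFRB, by 2.965 ± 0.193. PDGFRA averaged 5.16 CPM with NTX301 and 0.65 CPM with DMSO, and PDGFRB 8.40 CPM with NTX301 and 1.08 CPM with DMSO. LUM was the marker that fell, by 0.664 ± 0.205. Endothelial markers summed to 2.30 to 2.46 TPM with NTX301 and 1.47 to 1.64 TPM with DMSO. Leukocyte markers summed to 77.8 to 84.3 TPM with NTX301 and 41.5 to 48.1 TPM with DMSO, nearly all of it CD68 and CD14, with MS4A1 at 0 in all libraries. Each marker list holds few genes to set against the 35.4% of all tested genes that rose and the 35.1% that fell. The part of these markers in the results was not tested, and in bulk RNA a change in the number of cells of a kind and a change in RNA per cell cannot be told apart.

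SRF, the transcription factor of the set (ENSG00000112658.8, chromosome 6, 43171299 to 43181507 in GRCh38), had 65.7, 62.9 and 70.8 CPM in the NTX301 libraries, against 41.2, 41.3 and 39.5 CPM in the DMSO libraries. Each NTX301 library lay above each DMSO library. Its log2 fold change was 0.71 ± 0.05 (± SE throughout for log2 fold changes; edgeR adjusted p = 1.8e-07). Its MRTF cofactor MRTFB went the other way, at 47.2 ± 2.02 CPM with NTX301 and 75.7 ± 2.40 CPM with DMSO (mean ± SD, n = 3 each), a fall by 0.68 ± 0.05 on the log2 scale. MRTFA fell by 0.30 ± 0.08 on scaled counts, but its TPM overlapped between groups, with means of 5.56 with NTX301 and 5.70 with DMSO. SCAI, which represses MRTF, fell by 0.46 ± 0.10 on scaled counts, but averaged 2.003 TPM with NTX301 and 1.943 TPM with DMSO, also with overlap. ELK1, an SRF partner in growth factor signalling, rose by 0.48 ± 0.07. Of 6 tested SRF cofactors 2 rose and 3 fell, few genes to set against the 35.4% and 35.1% of all tested genes.

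The CArG box, the element that SRF binds, has 10 bases, with 6 inner bases that are A or T between a pair of C and a pair of G. It was searched in RefSeq promoter windows of 300 bases (GRCh38.p14), from 250 before to 50 after a gene's start, and reads the same on both strands. Windows were found for 36 of the 39 genes, 72 windows in all, and windows of 1 gene can overlap. TAGLN, MYL9 and ACTB had none, so all box and CpG counts leave them out. An exact box stood in a window of 11 of the 36 genes (30.6%), against 438 of 27305 genes with a window (1.6%). By window it was 13 of 72 (18.1%), against 454 of 35116 (1.29%). With up to 1 inner base other than A or T allowed, 17 of the 36 genes (47.2%) had a box, against 9.88% of all genes. The genes were listed by name as actin and SRF genes, many of them known SRF targets, so these shares describe the list. A match is a description of letters and not a bound site.

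Stretches around the boxes are shown for genes on both sides of the response, 5′ to 3′ on the gene's strand, ending before the start, with the boxes in capitals. Both ACTA2 boxes have 1 inner base that is not A or T, and all other boxes shown are exact. The MYLK window is at an internal start, with its box 263689 bases downstream of the 5′ end of a gene of 274283 bases, and so does not show the promoter of the full-length kinase. The ACTA2, ACTG1, ACTG2 and TPM4 boxes also lie within the annotated genes, ahead of internal starts. The ACTG2 boxes are 584 and 621 bases, and the TPM4 box 344 bases, downstream of the 5′ end of their genes.
SRF (chr6:43171214-43171268, plus strand): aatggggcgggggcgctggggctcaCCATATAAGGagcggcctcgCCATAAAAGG
ACTG2 (chr2:73892873-73892969, plus strand): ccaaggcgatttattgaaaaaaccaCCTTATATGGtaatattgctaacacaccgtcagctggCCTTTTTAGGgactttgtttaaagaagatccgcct
ACTA2 (chr10:88952810-88952919, minus strand): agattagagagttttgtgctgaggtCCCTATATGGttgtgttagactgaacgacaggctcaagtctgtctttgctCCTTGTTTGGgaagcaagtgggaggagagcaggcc
MYLK (chr3:123620608-123620667, minus strand): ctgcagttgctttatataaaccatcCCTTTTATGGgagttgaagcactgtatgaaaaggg
TPM4 (chr19:16067340-16067399, plus strand): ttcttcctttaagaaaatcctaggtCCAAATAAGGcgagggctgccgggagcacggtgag
FLNA (chrX:154374694-154374753, minus strand): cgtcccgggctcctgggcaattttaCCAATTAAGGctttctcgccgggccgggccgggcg
ACTG1 (chr17:81512859-81512918, minus strand): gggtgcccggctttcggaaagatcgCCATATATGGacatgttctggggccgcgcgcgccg
CNN2 (chr19:1026494-1026553, plus strand): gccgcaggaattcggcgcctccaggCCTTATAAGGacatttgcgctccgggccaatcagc

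SRF's own promoter carries a pair of exact boxes, whose first bases lie 30 and 10 bases before the start, and SRF rose. ACTG2 also has a pair, 110 and 73 bases before its start, and rose. ACTG1 has an exact box 94 bases before its start and fell, and the FLNA box lies at the same distance in a gene that rose by 0.85 ± 0.05. The promoter of CNN1, at 21.9-fold its DMSO level, had no box in its window. Of the 24 genes with a window that rose, 9 had an exact box, as did 2 of the 7 that fell and 0 of the 5 that were not called. By window it was 11 of 59 for the genes that rose and 2 of 8 for those that fell. The genes that rose had more windows per gene, and by window their share was the lower one. The counts by gene are thus not like for like, and 8 windows are few. No test was made of these counts.

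Promoters of the 36 genes also differed in CpG content, the dinucleotide whose methylation the drug lowers. The median was 24.5 CpGs per window, against 14 over all genes with a window, where a gene with several windows counts by its mean. All 24 genes with a window that rose had a median of 20.8, and the 8 of them that rose by 2-fold or more had 17.3. The 7 that fell had a median of 36, and the 5 that were not called had 31. The 24 genes that rose had 59 windows and the 7 that fell had 8, so averaging over several starts bears mainly on those that rose. FHL1, which rose, ran from 2 to 46 CpGs over 12 windows, and ACTN4, which fell, from 4 to 47 over 2. These medians are thus not like for like. ACTG2 with 5 CpGs and MYLK with 3 CpGs, counted at its internal start only, were among the lowest of the 36, and ACTG1 with 50 CpGs was the highest. CALD1 with 4.5 CpGs and TPM3 with 11.5 CpGs were also low, and rose by only 0.25 and 0.33 on the log2 scale. FLNA, with 47 CpGs, rose, so high counts were not confined to genes that fell. These counts are of sequence and not of methylation.

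**Figure D2:**
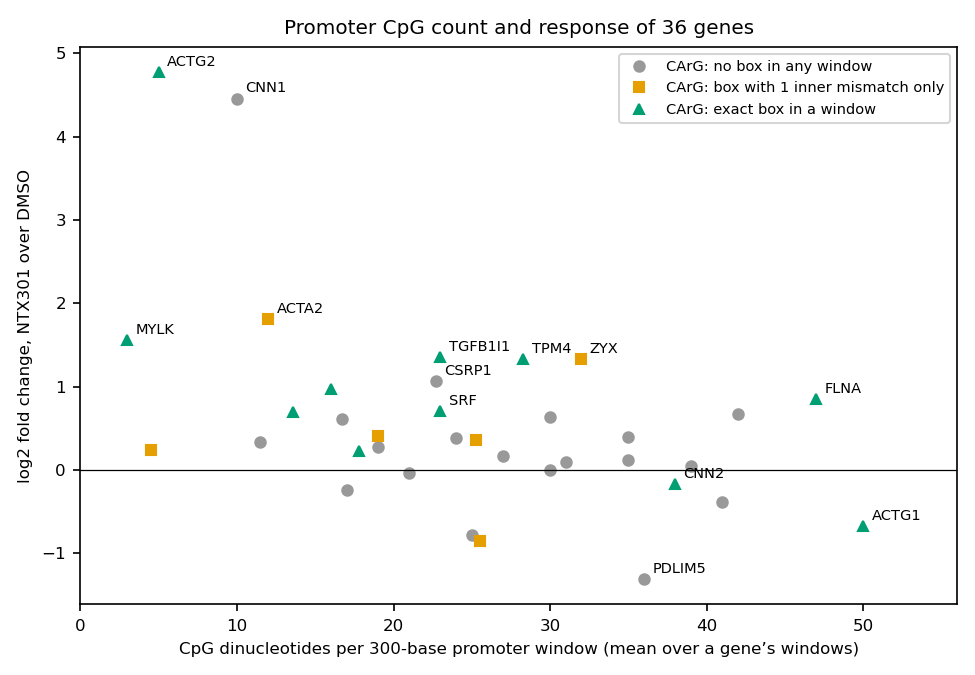
CpG dinucleotides per 300-base promoter window (mean over a gene's windows) against the log2 fold change, NTX301 over DMSO, of the 36 genes with a window; marker shape shows whether a CArG box was found. ACTG2, CNN1, ACTA2 and MYLK (internal start only) lie at 12 CpGs or fewer with changes above 1.5, and ACTG1 lies at 50 CpGs with a change of -0.67. CALD1 and TPM3 also lie below 12 CpGs, with changes of 0.25 and 0.33.

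Among actins, the 2 smooth muscle genes rose and the 2 cytoplasmic genes fell. ACTB (ENSG00000075624.17, chromosome 7, 5527147 to 5563784), the beta actin of all cells, had 1836, 1869 and 1846 CPM in the NTX301 libraries, against 2883, 2799 and 2730 CPM in the DMSO libraries. ACTG1 (ENSG00000184009.13, chromosome 17, 81509971 to 81523847), its gamma partner, had 1306, 1328 and 1285 CPM with NTX301, against 2120, 2114 and 2005 CPM with DMSO. In both genes the 3 NTX301 libraries lay close together and well below every DMSO library. The log2 fold changes were -0.60 ± 0.04 for ACTB and -0.67 ± 0.04 for ACTG1 (edgeR adjusted p = 6.7e-08 and 3.2e-08), and both genes fell under every alternative run. Processed pseudogenes named after ACTB held 0.1% as many counts as the gene in both groups, and those of ACTG1 0.207% with NTX301 and 0.109% with DMSO.

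ACTA2, alpha-smooth muscle actin (ENSG00000107796.13, chromosome 10, 88935074 to 88991339), had 1.94, 2.16 and 2.41 CPM in the NTX301 libraries, against 0.595, 0.75 and 0.482 CPM in the DMSO libraries. The groups did not overlap, and ACTA2 rose by 1.81 ± 0.23 on the log2 scale (edgeR adjusted p = 2.4e-05). ACTA2 overlaps FAS and STAMBPL1 on the other strand, and reads of the strands may not have been separated. ACTG2, the gamma actin of visceral smooth muscle (ENSG00000163017.14, chromosome 2, 73892314 to 73919865), had 26, 43 and 63 counts in the NTX301 libraries, against 3, 1 and 0 counts in the DMSO libraries. It was close to silent with DMSO, and the NTX301 libraries were spread from 1.05 to 2.45 CPM. It rose by 4.77 ± 0.58 (edgeR adjusted p = 1.5e-05), and by 5.97 without DMSO replicate 1, which held 3 of the 4 DMSO counts. Its rank against CNN1 was not stable. CNN1 had the larger change without NTX301 replicate 3 (CNN1 4.45, ACTG2 4.43), without DMSO replicate 3 (CNN1 4.32, ACTG2 4.27) and on log2(TPM + 0.1) (CNN1 4.51, ACTG2 3.88), and on log2(TPM + 1) ACTG2 was at 1.60, below TAGLN, CNN1 and MYL9.

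The smooth muscle actins stayed a trace of all actin RNA. On the TPM scale, which divides by transcript length and so allows genes to be compared, ACTA2 and ACTG2 together made up 0.128%, 0.16% and 0.202% of the TPM of 6 actin genes in the NTX301 libraries, against 0.0201%, 0.0218% and 0.0142% in the DMSO libraries. ACTB made up 60.0% with NTX301 and 58.9% with DMSO. The 6 genes together averaged 3402 ± 76.9 TPM with NTX301 and 4545 ± 35.9 TPM with DMSO (SD, n = 3 each). The striated muscle actins ACTA1 and ACTC1 averaged below 0.32 TPM in both groups.

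**Figure D3:**
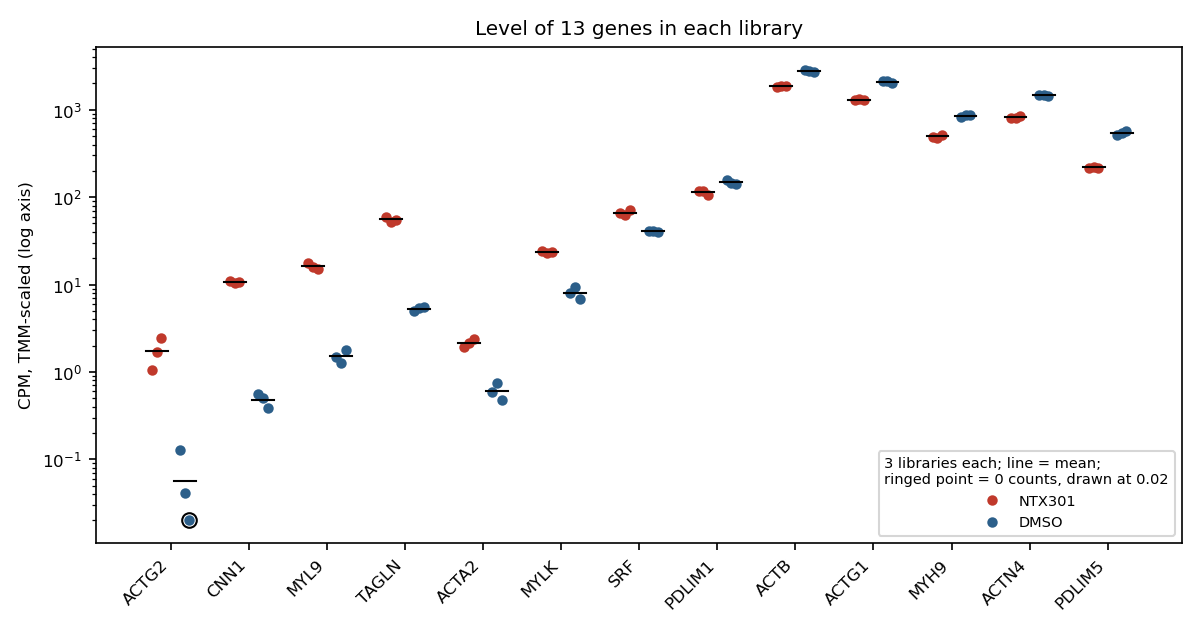
CPM (TMM-scaled counts, log axis) of 13 genes in each of the 3 NTX301 and 3 DMSO libraries, with lines at the group means. ACTG2, CNN1, MYL9, TAGLN, ACTA2, MYLK and SRF are higher in each NTX301 library than in any DMSO library, and PDLIM1, ACTB, ACTG1, MYH9, ACTN4 and PDLIM5 are lower in each; ACTG2 had 0 counts in DMSO replicate 3.

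Of 10 genes for proteins that lie along actin filaments, 8 rose, 1 fell and 1 was not called (80.0% and 10.0%, against 35.4% and 35.1% of all tested genes). CNN1, calponin 1, which binds actin and restrains myosin in smooth muscle (ENSG00000130176.8, chromosome 19, 11538717 to 11550323), had 10.9, 10.5 and 10.8 CPM in the NTX301 libraries, against 0.553, 0.5 and 0.386 CPM in the DMSO libraries. The NTX301 libraries differed little from one another, and the gap to the DMSO libraries was wide. It rose by 4.46 ± 0.15 on the log2 scale (edgeR adjusted p = 3.2e-10). TAGLN, transgelin or SM22 (ENSG00000149591.17, chromosome 11, 117199321 to 117204782), had 58.9, 52.5 and 55.0 CPM with NTX301, against 4.98, 5.33 and 5.59 CPM with DMSO, and rose by 3.39 ± 0.07. TAGLN overlaps PCSK7 on the other strand.

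The paralogues of these genes that non-muscle cells use changed less. TAGLN2 averaged 333 ± 8.22 CPM with NTX301 and 217 ± 14.9 CPM with DMSO (SD, n = 3 each) and rose by 0.62 ± 0.05. CNN3, the acidic calponin, rose by 0.39 ± 0.05. CNN2 averaged 101 ± 1.00 CPM with NTX301 and 114 ± 2.86 CPM with DMSO and fell by 0.17 ± 0.04, but had the opposite sign without a scaling factor (0.04) and on log2(TPM + 1) (0.03), where it was not past the threshold. In share of TPM, CNN1 made up 5.53 ± 0.0768% of calponin RNA with NTX301 and 0.279 ± 0.0315% with DMSO, and TAGLN 12.8 ± 0.482% of transgelin RNA with NTX301 and 2.07 ± 0.144% with DMSO (SD, n = 3 each).

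Tropomyosins, the coiled coils that lie along the filament and set which proteins may bind it, rose in 3 of 4 genes. These are few genes to set against the 35.4% of all tested genes that rose. TPM4 averaged 214 ± 5.76 CPM with NTX301 and 84.96 ± 0.582 CPM with DMSO and rose by 1.33 ± 0.04. TPM3 rose by 0.33 ± 0.04 and TPM2 by 0.17 ± 0.05. TPM1 had a log2 fold change of 0.04 ± 0.04 (edgeR adjusted p = 0.3021) and was past the threshold only without a scaling factor (0.25) and on log2(TPM + 1) (0.21) or log2(TPM + 0.1). TPM4 made up 12.5% of tropomyosin TPM with NTX301 and 5.998% with DMSO, and TPM1 had 33.6% with NTX301 and 40.5% with DMSO. Processed pseudogenes of TPM4 held 2.43% as many counts as the gene with NTX301 and 5.33% with DMSO. CALD1, caldesmon, which ties myosin to actin, rose by 0.25 ± 0.04.

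Of 5 myosin II genes 2 rose and 2 fell (40.0% each, against 35.4% and 35.1% of all tested genes). MYL9, the regulatory light chain of smooth muscle (ENSG00000101335.10, chromosome 20, 36541484 to 36551447), had 17.6, 15.9 and 14.9 CPM in the NTX301 libraries, against 1.49, 1.25 and 1.78 CPM in the DMSO libraries. MYLK, the kinase that phosphorylates this chain (ENSG00000065534.20, chromosome 3, 123610049 to 123884331), had 24.2, 23.2 and 23.4 CPM with NTX301, against 7.95, 9.25 and 6.75 CPM with DMSO. No NTX301 library reached down to a DMSO library in either gene. MYL9 rose by 3.43 ± 0.13 and MYLK by 1.56 ± 0.09 (edgeR adjusted p = 7.7e-10 and 3.3e-08). MYL9 and MYLK overlap DLGAP4-AS1 and MYLK-AS1 on the other strand.

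MYH9, the heavy chain of non-muscle myosin IIA (ENSG00000100345.23, chromosome 22, 36281277 to 36388067), had 491, 474 and 519 CPM in the NTX301 libraries, against 828, 864 and 862 CPM in the DMSO libraries. All NTX301 values were below all DMSO values, and MYH9 fell by 0.78 ± 0.04 (edgeR adjusted p = 1.7e-08). MYH10, the heavy chain of non-muscle myosin IIB, had a log2 fold change of -0.03 ± 0.05 with overlapping groups, and a positive sign without a scaling factor (0.18, past the threshold) and on log2(TPM + 1) (0.17, not past it). Its share of the 3 non-muscle heavy chains was 13.1 ± 0.202% of TPM with NTX301 and 8.25 ± 0.119% with DMSO (SD, n = 3 each). MYL6, the essential light chain, fell by 0.24 ± 0.07 and missed the threshold when no scaling factor was used (log2 -0.03, edgeR adjusted p = 0.68) or on log2(TPM + 1) (log2 -0.03, limma adjusted p = 0.77). MYL6 shares its locus with MYL6B, so the split of their reads is uncertain.

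Of 8 crosslinkers and focal adhesion proteins, 5 rose, 1 fell and 2 were not called (62.5% and 12.5%, read against the same shares of all tested genes). ZYX, zyxin, a LIM protein that gathers at strained stress fibres, averaged 191 ± 1.46 CPM with NTX301 and 75.4 ± 6.75 CPM with DMSO (SD, n = 3 each) and rose by 1.34 ± 0.06. FLNA, filamin A, which crosslinks filaments and ties them to integrins, averaged 1207 ± 63.1 CPM with NTX301 and 670 ± 15.1 CPM with DMSO. FLNC, the filamin of muscle, rose by 0.68 ± 0.05, and VASP, which extends filaments, by 0.41 ± 0.04. VCL and TLN1, the vinculin and talin that link integrins to actin, had log2 fold changes of 0.01 ± 0.04 and 0.10 ± 0.05 (edgeR adjusted p = 0.9081 and 0.07982). Both were past the threshold when no scaling factor was used and on log2(TPM + 1) and log2(TPM + 0.1). TLN1 was also past it with a replicate block and without NTX301 replicate 2. VCL had a negative sign without NTX301 replicate 3, without DMSO replicate 2 and with no filter on low counts.

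The alpha-actinins, which bundle filaments, moved in opposite directions. ACTN4 (ENSG00000130402.14, chromosome 19, 38647649 to 38731583) had 813, 796 and 848 CPM in the NTX301 libraries, against 1487, 1486 and 1453 CPM in the DMSO libraries, and fell by 0.85 ± 0.04 (edgeR adjusted p = 4.1e-09). Its NTX301 values were all far below its DMSO values. ACTN1 averaged 542 ± 21.1 CPM with NTX301 and 464 ± 9.96 CPM with DMSO and rose by 0.22 ± 0.04. ACTN1 made up 41.0%, 41.5% and 41.1% of the TPM of both genes in the NTX301 libraries, against 24.5%, 24.9% and 24.8% in the DMSO libraries.

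**Figure D4:**
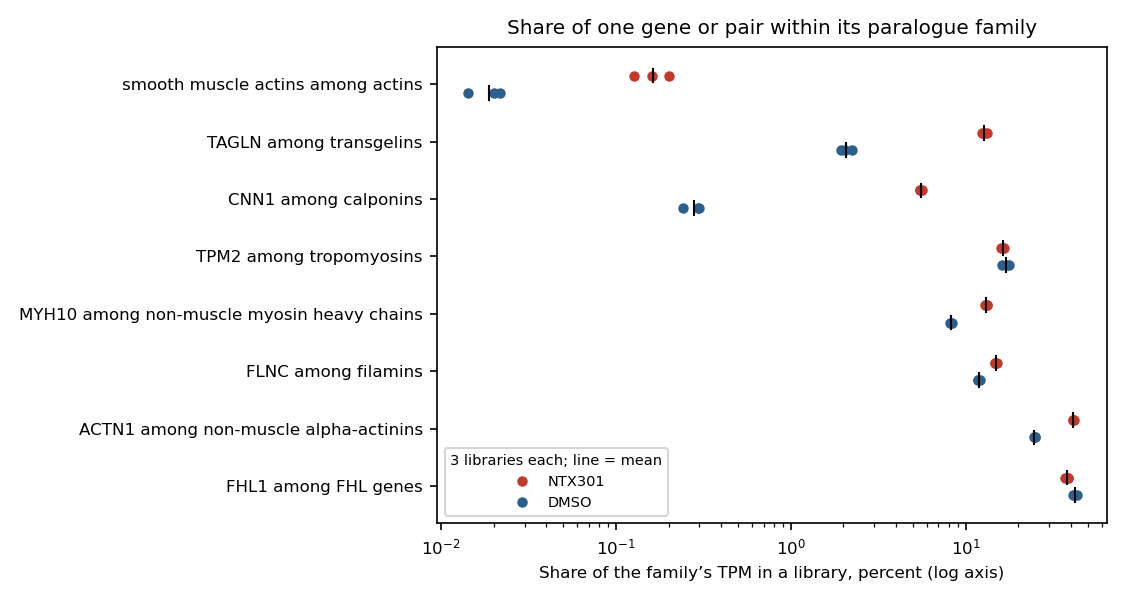
Share of 1 gene or pair in the TPM of its paralogue family (percent, log axis) in each library; points are 3 NTX301 and 3 DMSO libraries, lines are means. The groups are apart in 7 of 8 families, with ACTN1 near 41% with NTX301 and 25% with DMSO, and they overlap for TPM2 at 16.3% with NTX301 and 17.0% with DMSO.

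The shares of 8 families were each compared by a two-sided exact permutation test over libraries, which with 3 against 3 cannot give a p below 0.1. In the exact test 7 families reached p = 0.1, which is the smallest possible, and 0.1143 after Benjamini-Hochberg adjustment over the 8. For TPM2 among tropomyosins the exact p was 0.3. The smooth muscle actins, TAGLN, CNN1, MYH10, FLNC and ACTN1 had larger shares with NTX301, and FHL1 had a smaller share of the FHL genes, 37.99 ± 0.692% with NTX301 and 42.1 ± 0.944% with DMSO (SD, n = 3 each).

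Of 7 LIM and PDZ-LIM genes, whose proteins carry signals between adhesions, filaments and the nucleus, 5 rose and 2 fell (71.4% and 28.6%, against 35.4% and 35.1% of all tested genes). TGFB1I1, also called HIC-5, a paxillin relative of focal adhesions, averaged 46.6 ± 1.82 CPM with NTX301 and 18.2 ± 0.256 CPM with DMSO and rose by 1.35 ± 0.05. CSRP1, a LIM protein that bundles filaments with alpha-actinin, rose by 1.07 ± 0.06, FHL2, a coactivator that also binds integrins, by 0.97 ± 0.05, FHL1 by 0.70 ± 0.04 and PDLIM7 by 0.63 ± 0.04. PDLIM1 (ENSG00000107438.9, chromosome 10, 95237572 to 95291024) had 117, 117 and 106 CPM in the NTX301 libraries, against 155, 147 and 141 CPM in the DMSO libraries, and fell by 0.38 ± 0.05 (edgeR adjusted p = 2.8e-05). Its groups were close but apart.

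PDLIM5, a PDZ-LIM protein of stress fibres and Z-discs (ENSG00000163110.15, chromosome 4, 94451857 to 94668227), had the largest fall of the 39. It had 217, 223 and 218 CPM in the NTX301 libraries, against 517, 540 and 568 CPM in the DMSO libraries, with a log2 fold change of -1.30 ± 0.04 (edgeR adjusted p = 3.1e-10). In TPM the gap was smaller, with 103, 100 and 105 TPM in the NTX301 libraries, against 166, 174 and 182 TPM in the DMSO libraries, and -0.75 on the log2(TPM + 1) scale. TPM differs from these counts both in length and in having no TMM scaling. On counts without a scaling factor the log2 fold change was -1.1. The deposited tables also give each gene's transcript length, which RSEM averages over transcripts by their estimated abundance. For PDLIM5 that length was 4025, 4231 and 4147 bases with NTX301, against 5060, 5195 and 5328 bases with DMSO, a ratio of 0.796. The lengths of both groups were well apart, with shorter transcripts in each NTX301 library. Among the other 38 genes the ratio ran from 0.976 to 1.07. This readout was looked at after the values were seen, and which transcripts differ was not analysed here.

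Of 4 genes for actin monomer binding and turnover, 3 rose and 0 fell, with CFL1 not called (75.0% and 0%, against 35.4% and 35.1% of all tested genes). TMSB10, thymosin beta 10, which holds actin monomers, had 805, 787 and 726 CPM in the NTX301 libraries, against 646, 605 and 505 CPM in the DMSO libraries, and rose by 0.40 ± 0.08. DMSO replicate 3 was the lowest DMSO library for TMSB10, and also for PFN1 and CFL1. PFN1, profilin 1, which delivers monomers to growing ends, rose by 0.27 ± 0.06, and CAP1, which recycles monomers, by 0.36 ± 0.04. CFL1, cofilin 1, which severs filaments, had a log2 fold change of 0.12 ± 0.06 (edgeR adjusted p = 0.08655). It was past the threshold in DESeq2 (adjusted p = 0.037), with a replicate block, without a scaling factor and on log2(TPM + 1) and log2(TPM + 0.1). Without DMSO replicate 3 the counts over all 39 genes were 26 higher and 8 lower, as with it.

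By TPM, TMSB10 was the most abundant of the 39 with NTX301 at 3791 ± 112.5 TPM, followed by ACTB at 2041 ± 55.3, PFN1 at 1563 ± 33.4, CFL1 at 1395 ± 8.02 and ACTG1 at 1354 ± 20.2 TPM (SD, n = 3 each). With DMSO the order was ACTB at 2677 ± 7.24, TMSB10 at 2480 ± 252, ACTG1 at 1867 ± 30.2, PFN1 at 1117 ± 76.6 and CFL1 at 1109 ± 68.7 TPM. Neither ACTB and TMSB10 nor PFN1 and CFL1 differed beyond their SD with DMSO. The 39 genes together held 1.57% to 1.61% of all TPM in the NTX301 libraries, against 1.33% to 1.42% in the DMSO libraries. The 26 genes that averaged at least 100 CPM over all 6 libraries rose in 14 cases and fell in 8 (53.8% and 30.8%), against 29.2% and 55.2% of the 2278 tested genes as abundant. The 13 genes below that level rose in 12 cases and fell in 0, with 1 of the 13, MYH10, not called, against 36.3% and 32.4% of tested genes below it.

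Other genes of the same machinery, taken from lists drawn up by function, are given with the shares of all tested genes that rose (35.4%) or fell (35.1%) as the background. Of 13 tested further SRF targets 10 rose and 1 fell (76.9% and 7.69%). FOSB, an AP-1 factor, rose by 1.63 ± 0.20 on the log2 scale, FOS by 1.46 ± 0.08 and ANKRD1, a nuclear and sarcomeric ankyrin protein, by 1.37 ± 0.04. ACTA1, ACTC1 and EGR3 were too low to test.

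Of 11 genes of the Arp2/3 complex, which nucleates branched filaments, and its activators, 4 rose and 6 fell (36.4% and 54.5%), and none changed by 2-fold. Of the 11, 8 averaged at least 100 CPM, and of all tested genes as abundant 29.2% rose and 55.2% fell, so these shares are near the background. ARPC1B fell by 0.44 ± 0.04, WASF2, an activator of the complex, by 0.36 ± 0.04, and ARPC2 rose by 0.36 ± 0.04. Of 11 further genes of actin turnover 3 rose and 4 fell (27.3% and 36.4%), and 10 of these averaged at least 100 CPM, where the shares are again 29.2% and 55.2%. CAP2 rose by 0.79 ± 0.06, WDR1, which works with cofilin, by 0.68 ± 0.04, and TMSB4X, the thymosin beta 4 paralogue of TMSB10, fell by 0.50 ± 0.06. TMSB4X averaged 3536 ± 79.7 TPM with NTX301 and 4322 ± 357 TPM with DMSO (SD, n = 3 each), so these thymosins moved in opposite directions.

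Of 13 tested further focal adhesion genes 5 rose and 5 fell (38.5% each), close to the shares of all tested genes. Of the 13, however, 9 averaged at least 100 CPM, and of all tested genes as abundant 29.2% rose and 55.2% fell. TNS1 and TNS3, both tensins that link integrins to actin, changed by 1.64 ± 0.08 and -1.28 ± 0.05, and FERMT2, kindlin-2, an integrin activator, rose by 1.14 ± 0.04. TNS1 averaged 20.7 ± 1.13 CPM with NTX301 and 6.63 ± 0.213 CPM with DMSO, and TNS3 averaged 255 ± 16.7 CPM with NTX301 and 619 ± 12.6 CPM with DMSO (SD, n = 3 each). Of 11 tested further paralogues of the 39 genes, 6 rose and 3 fell (54.5% and 27.3%), with CSRP2, a smooth muscle LIM protein, higher by 1.76 ± 0.10 on the log2 scale and FHL3 by 0.83 ± 0.07.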

How the data were processed

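The authors deposited 1 gene table per library with the columns that RSEM writes, per the file headers. The deposited expected counts estimate the reads of each gene and are not normalized. Deposited TPM values are abundances per length, scaled by the authors to the same sum in each library. The deposited FPKM column was not used. Tool versions, genome build, annotation and strand setting are not stated: 20 of the 39 genes overlap a tested gene on the other strand, and RSEM divides reads shared by near-identical copies. Lengths exceed effective lengths by 74 bases.

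Of 62703 entries, 47 pseudoautosomal ones were added to their X copies. Symbols came from a table of gene names (62639 of 62656 matched by stable identifier) and positions from GENCODE 29 (GRCh38). Counts were rounded and tested with edgeR 4.0.16 (R 4.3.3): filterByExpr, TMM (factors 0.9206 to 1.0834), quasi-likelihood fit on all 6 libraries with treatment as the term. Errors of log2 fold changes derive from the F statistic. Alternatives were RLE scaling, no scaling factor, DESeq2 1.42.0, limma 3.58.1 (voom, and log2 TPM with pseudocounts 1 and 0.1 over genes of mean TPM at least 0.5), no filter, a replicate block and each library left out; family shares were also taken from counts not divided by length. The edgeR script was tested on simulated data.

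Chi-square over degrees of freedom was 2.37 to 6.57 for same-group pairs of libraries and at least 110.74 for other pairs, so none was taken for a duplicate. The second principal component (6.34% of variance) set DMSO replicate 3 apart. The members, lists and the rule for named genes were chosen with earlier results of these data known. The rule gives library values for the actins, SRF and the 6 largest called changes each way, and up to 3 called genes of at least 1 CPM per further list. PDLIM5 transcript lengths, the abundance classes, TMSB10 library values and members with smaller changes given by means, and the positions of boxes in their genes, were added after values were seen. A planned comparison of protein sequences was not run, as none were used here. Some genes of the further lists and families are not reported here.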

Additional observations from a re-analysis of the deposited data

How the results depend on the processing

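Of the 39 genes, 26 rose and 8 fell in the main fit, and these counts stayed between 26 and 31 and between 6 and 8 over all alternatives. The median log2 fold change of the 39 was 0.39, and 0.597 without a scaling factor, 0.601 on log2(TPM + 1), 0.605 on log2(TPM + 0.1) and 0.362 with no filter on low counts. With 1 library left out it ran from 0.313 to 0.43, lowest without DMSO replicate 3 and highest without DMSO replicate 1. Over all tested genes 6677 fell, against 4163 on log2(TPM + 1) and 4145 on log2(TPM + 0.1), which test other genes and use no TMM. Signs reversed for CNN2 (0.04 without a scaling factor, 0.03 on log2(TPM + 1), 0.03 on log2(TPM + 0.1)), for MYH10 (0.18, 0.17 and 0.18 in the same order) and for VCL (-0.02 with no filter, and from -0.03 without DMSO replicate 2 to 0.01 with 1 library left out), none of them past the threshold there except MYH10 without a scaling factor (edgeR adjusted p = 0.0072), and the cause was not tested. The 8 differences in family shares kept their direction in each alternative run. Same-numbered libraries of both groups had deviations correlated at 0.08, -0.028 and 0.043, so the numbers were not taken as pairs, and with a replicate block 28 of the 39 rose and 8 fell. Depth limits ACTG2 most, with 4 counts over the DMSO libraries.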
